A study of Mus musculus with 12 samples.

Results

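This account concerns the inner pieces of the posterior neural tube, parts 2 and 3 of a tube cut into 6, set against the 2 end pieces, parts 1 and 6. The comparison uses 8 of the 12 arrays of the series: 4 arrays of parts 2 and 3 (the inner side) and 4 arrays of parts 1 and 6 (the ends), chosen by their titles. All pieces came from CD1 mouse embryos, an outbred strain, at embryonic day 9.5, with no further treatment or genotype given. The embryos were loosened with pancreatin, a mixture of digestive enzymes, and the tube was freed with needles before it was cut. Tissue was taken from 2 embryos, and each piece has 2 replicates. The labels do not say which number is the tail end, so values are given by part number. The question the comparison answers is which genes have a maximum or a minimum inside the dissected stretch, as distinct from those that rise or fall from one end to the other.

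In the trunk of an embryo at this stage the spinal cord is still being added at the tail. Progenitors there are held under fibroblast growth factor (FGF) and Wnt signals, pass into a transition zone called the preneural tube, and start to differentiate further forward, where retinoic acid made by the somites reaches the closed tube. FGF signalling switches on its own feedback genes, among them the Sprouty and dual-specificity phosphatase families and the Pea3-group ETS factors, so that transcripts of ligands and of response genes can be read side by side. Notch signalling acts between neighbouring neural progenitors, and some Hes genes, Hes5 among them, are its direct targets. Hox genes are switched on in an order that runs from the head to the tail, and later-numbered groups mark more caudal levels.

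Neural identity was checked first. Sox2, a transcription factor of neural progenitors, gave signals (linear MAS5 array intensity, replicates 1 and 2) of 199 and 286 in part 1, 820.3 and 981 in part 2, 1207 and 1558 in part 3 and 1426 and 1611 in part 6. Sox2 was therefore lowest in part 1, and all other arrays lay well above it. Transcripts of neighbouring tissues were also present. On the replicate 1 array of part 2, Aplnr, Dll1 and Tbx6, genes of mesoderm or presomitic mesoderm, gave 1493, 525 and 273, against 24.2, 22.2 and 33.7 on the replicate 2 array. The embryonic globin Hbb-y, a red blood cell gene, was low in replicate 1 of part 1 (21.4) and of part 6 (56.5), at 7055 and 4612 in their replicate 2 arrays, and between 943 and 4338 on the 4 inner arrays. Over 9 marker lists of other tissues, from presomitic mesoderm to blood, 0 of 62 genes had 4 inner arrays all above, or all below, the 4 end arrays, beside 2.97% of all genes, and with so few genes the 0 does not set them apart. Of 10 presomitic mesoderm genes, 4 were lower in the inner pieces than in part 1, beside 1.27% of all genes. The list median of the difference from part 1 was −1.73 on the log2 scale. Against part 6, 2 of the 10 were higher in the inner pieces, beside 2.85% of all genes. The part of these neighbouring tissues in the results below was not tested, except where a value is given. In pieces of tissue, fewer cells of a type and less RNA per cell cannot be told apart.

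**Figure D1:**
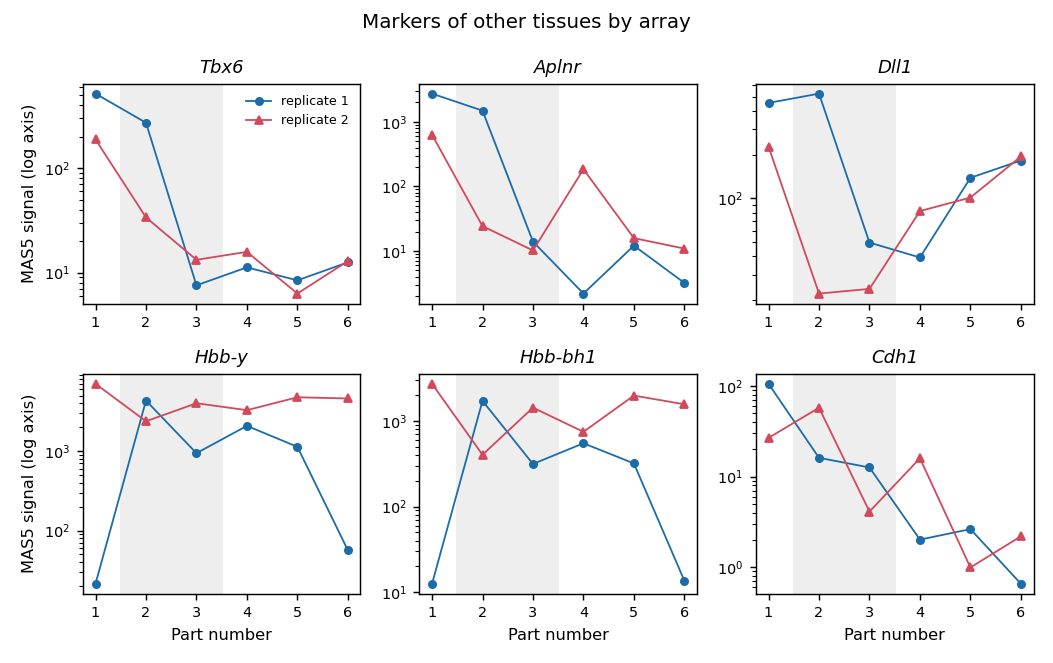
Signal (log axis) of 6 genes of tissues next to the neural tube against part number, with replicate 1 as circles and replicate 2 as triangles and parts 2 and 3 shaded. The replicate 1 array of part 2 stands above its replicate 2 for Tbx6, Aplnr and Dll1, and the globins Hbb-y and Hbb-bh1 are low in replicate 1 of parts 1 and 6.

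Over 12089 genes, the 4 inner arrays lay above all 4 end arrays for 200 genes (1.65%) and below them for 159 (1.32%), 359 (2.97%) in all. In simulated data, 3.07% of unchanged genes had inner and end arrays that did not overlap, a share close to the 2.97% here. Non-overlap alone is therefore not read as a result for a gene. The differences were mostly modest: the median difference of inner minus ends on the scale of log2(signal + 4.43) was 0.51 for the first set and −0.37 for the second, against 0.01 over all genes, and 24 and 19 genes reached a difference of 1 in size. Of the 200 and 159 genes, 15 and 13 passed the filter on low signals only through the side where they were high, and these had to differ. The offset keeps dim probe sets from giving large ratios, and it understates the change of genes with low signal. A test of the 2 sides as single groups, with the replicate number as a block, called only 1 gene (0.00827% of those tested) at an adjusted p under 0.05, a lower one, and 0 genes (0%) higher. That gene, Ly6k, had no inner array above its array's median signal and entered the test only through end arrays, so it had to differ and is not read as a result. At an unadjusted p under 0.05 the test of single groups counted 592 genes (4.9%), 360 higher (2.98%) and 232 lower (1.92%). The 4.9% is near the share that this threshold gives with no difference. That test takes the difference between part 1 and part 6 into its spread, so a gene that is high inside and unequal at the ends cannot pass it easily.

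A second fit gave each of the 6 pieces its own level and asked whether the mean of parts 2 and 3 differed from part 1 and, separately, from part 6, with the spread taken from arrays of the same piece. Both comparisons use the same inner arrays and are not independent of each other. In it, 16 genes (0.132%) were higher in the inner pieces than at both ends and 8 (0.0662%) were lower. All 24 had inner and end arrays that did not overlap, which rests on the same arrays and adds no support. Against part 1 alone the inner pieces were higher for 235 genes (1.94%) and lower for 153 (1.27%), and against part 6 alone higher for 345 (2.85%) and lower for 243 (2.01%). The 16 higher genes held 4 developmental transcription factors (Foxd1, Gbx2, Nkx1-2 and Hoxa5) and 3 FGF genes (Fgf18, Etv5 and Spry2). All 16 had at least 1 end array above the median signal of its array. Of the 8 lower genes, 4 had inner arrays above that median: the Notch target Hes5, the ligand Fgf15, the BMP-binding protein Bmper and the transcription factor Ets1. The other 4 (Pax7, Ly6k, Asb4 and Mmp23) had no such inner array, and Pax7, Ly6k and Mmp23 entered the test only through end arrays. Their signals are described below with no test. In the test of single groups the adjusted p of the 23 genes other than Ly6k lay between 0.171 and 0.796. Single arrays moved these counts: the higher count was 37 without replicate 1 of part 1, 6 without replicate 2 of part 2 or of part 3, 7 without replicate 1 of part 3 or of part 6 and 8 without replicate 2 of part 6, and the lower count was 5 without either array of part 1 and 3 without replicate 2 of part 6. Foxd1, Kirrel3, Castor2, Hoxa5 and Hes5 kept their call whichever of the 8 arrays was left out. Without both arrays low in globin, 5 of the 16 and 2 of the 8 kept theirs. Part 3 was not called different from part 2 for any of the 24, in a comparison that called 26 genes in all (0.215%).

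**Figure D2:**
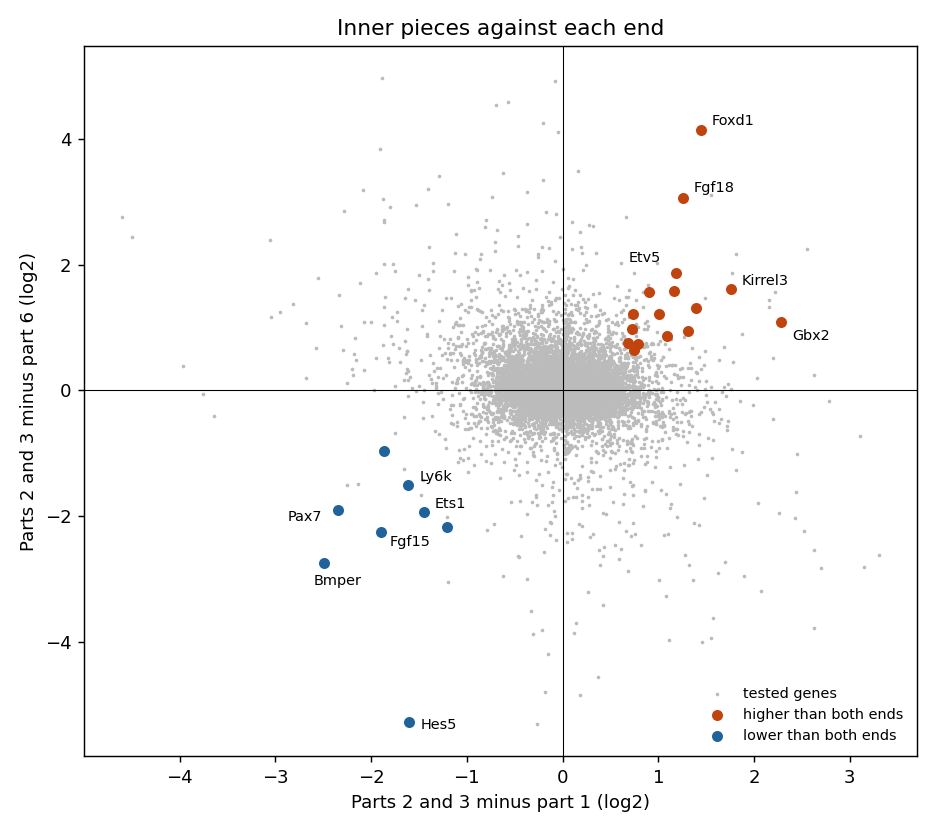
Each point is a gene, placed by the log2 difference of parts 2 and 3 from part 1 (horizontal) and from part 6 (vertical), with the genes that passed both comparisons coloured and some labelled. The 16 genes higher than both ends lie in the upper right and the 8 lower ones in the lower left, while Foxd1 and Hes5 lie far from the diagonal, at 4.13 and −5.27 from part 6.

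Foxd1, a forkhead transcription factor, had the largest rise over the ends. Foxd1 gave 293 and 487 in part 1, 936 and 1198 in part 2, 934 and 1092 in part 3 and 47.1 and 63.7 in part 6. Every inner array was above every end array, and part 1 lay well above part 6. Foxd1 was higher in the inner pieces than in part 1 by 1.44 ± 0.16 (SE, log2 scale, adjusted p = 0.00304) and than in part 6 by 4.13 ± 0.16 (adjusted p = 1.22e-05). The call held when each of the 8 arrays was left out in turn, with an adjusted p of at most 0.0185. The signal was lower toward part 6, with 517 and 542 in part 4 and 157 and 167 in part 5, and part 4 was called above part 6 (adjusted p = 0.000516) but not above part 1 (adjusted p = 0.186).

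Gbx2, a homeodomain factor of the posterior neural plate and hindbrain, was lowest in part 1, where Sox2 was lowest too. Gbx2 gave 47.4 and 66.5 in part 1, 201 and 312 in part 2, 240.0 and 469 in part 3 and 127 and 145 in part 6. The inner arrays did not overlap either end, with part 6 between the other pieces. Gbx2 was higher in the inner pieces than in part 1 by 2.28 ± 0.19 (adjusted p = 0.000948) and than in part 6 by 1.08 ± 0.19 (adjusted p = 0.0131). The call against both ends was lost on leaving out either array of part 6, with an adjusted p of up to 0.184. For 11 of 19 early neural progenitor genes, Sox2 among them, the inner pieces were higher than part 1, beside 1.94% of all genes. For 11 they were lower than part 6, beside 2.01%, and Gbx2 was the only member of that list higher than both.

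Nkx1-2, a homeodomain factor known from the caudal epiblast and the preneural tube, was the brightest of the 16. Nkx1-2 gave 1266 and 1889 in part 1, 2537 and 3075 in part 2, 3187 and 2776 in part 3 and 1016 and 938 in part 6. All arrays were bright, and the inner ones were the highest. Nkx1-2 was higher in the inner pieces than in part 1 by 0.90 ± 0.18 (adjusted p = 0.0341) and than in part 6 by 1.56 ± 0.18 (adjusted p = 0.00155). Its adjusted p against part 1 was close to the threshold. The call against both ends was lost on leaving out any array but replicate 2 of part 1, with an adjusted p of up to 0.1. A second, dim probe set of the gene gave an inner minus ends difference of −0.15. Among 18 caudal progenitor genes, Nkx1-2 was the only one beyond both ends. Of that list 10 genes were higher in the inner pieces than in part 6, beside 2.85% of all genes. In the inner pieces 4 were lower than in part 1, beside 1.27%. Against part 1 the fitted difference of Fgf3 was −3.75 (adjusted p = 0.00583) and that of Wnt5b −1.95 (adjusted p = 0.00102).

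Hoxa5, a Hox gene of the neck and upper trunk, had nearly equal signals at the 2 ends. Hoxa5 gave 333 and 278 in part 1, 614 and 563 in part 2, 639 and 647 in part 3 and 279 and 245 in part 6. The inner arrays were about level with each other and above both ends. Hoxa5 was higher in the inner pieces than in part 1 by 1.01 ± 0.14 (adjusted p = 0.00812) and than in part 6 by 1.22 ± 0.14 (adjusted p = 0.00165). The call held without each array in turn, with an adjusted p of at most 0.0488. A second probe set gave a difference of 0.43 and overlapped. Hoxa5 was the only one of 13 genes of Hox groups 1 to 5 beyond both ends. For all 6 genes of groups 10 to 13 the inner pieces were higher than part 6, beside 2.85% of all genes. By the test, 0 of the 6 differed from part 1. Hoxc8, of group 8, was inner high by a gap of only 0.03 between the nearest arrays and passed neither test.

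**Figure D3:**
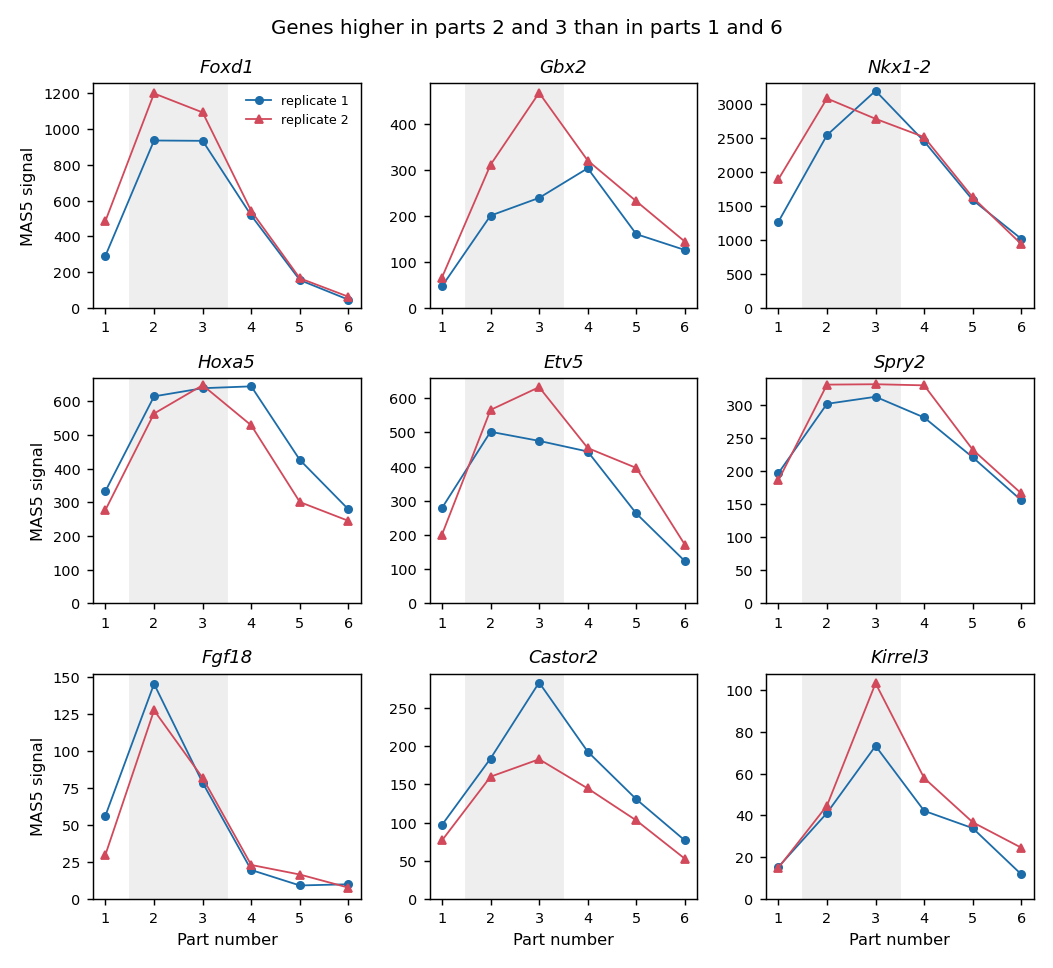
Signal (linear axis from 0) against part number for 9 genes higher in parts 2 and 3 than at both ends, with replicate 1 as circles, replicate 2 as triangles and parts 2 and 3 shaded. Foxd1 and Fgf18 drop steeply from part 2 to part 6, while Hoxa5, Spry2 and Etv5 stay high in part 4 and end near their part 1 level or below it.

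The FGF genes had courses of several kinds. Fgf18, a ligand of the Fgf8 group, peaked in part 2. Fgf18 gave 56.3 and 29.9 in part 1, 146 and 128 in part 2, 78.5 and 81.9 in part 3 and 9.8 and 7.53 in part 6. Part 2 was higher than part 3 in both replicates, and the end arrays were all lower. Fgf18 was higher in the inner pieces than in part 1 by 1.26 ± 0.26 (adjusted p = 0.0395) and than in part 6 by 3.06 ± 0.26 (adjusted p = 0.000293). Its call was lost on leaving out any array but replicate 1 of part 1, with an adjusted p of up to 0.178.

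The related ligands Fgf8 and Fgf17 did not have this maximum. Fgf8 gave 112 and 68.7 in part 1, 62.2 and 56.7 in part 2, 21.4 and 20.5 in part 3 and 1.26 and 0.295 in part 6. Fgf17 gave 496 and 562 in part 1, 296 and 578 in part 2, 316 and 293 in part 3 and 15.8 and 6.66 in part 6. Both were higher in the inner pieces than in part 6, with adjusted p = 0.00454 for Fgf8 and 9.7e-05 for Fgf17. Against part 1 their inner arrays overlapped (Fgf17) or lay below (Fgf8), by differences of −0.57 and −1.20 that did not pass the test (adjusted p = 0.349 and 0.165). The summed signal of 10 presomitic mesoderm genes was 4270 to 6170 in part 1, 2250 to 4850 in part 2, 817 to 856 in part 3 and 1180 to 1220 in part 6, and its part in the course of these ligands was not tested.

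Among the response genes, Etv5, a Pea3-group ETS factor switched on by FGF, was high in parts 2 to 4. Etv5 gave 279 and 201 in part 1, 502 and 566 in part 2, 476 and 633 in part 3 and 124 and 172 in part 6. The inner arrays were above both ends without overlap. Etv5 was higher in the inner pieces than in part 1 by 1.18 ± 0.21 (adjusted p = 0.0253) and than in part 6 by 1.86 ± 0.21 (adjusted p = 0.00165). The call was lost on leaving out replicate 2 of part 1 or any inner array, with an adjusted p of up to 0.0997. Other probe sets of the gene gave differences of 0.55 and 1.00 and overlapped.

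Spry2, a feedback inhibitor of receptor tyrosine kinase signalling, was level across the inner pieces. Spry2 gave 197 and 187 in part 1, 302 and 332 in part 2, 313 and 332 in part 3 and 156 and 167 in part 6. The 4 inner arrays lay close together and the 4 end arrays apart from them. Spry2 was higher in the inner pieces than in part 1 by 0.72 ± 0.12 (adjusted p = 0.0198) and than in part 6 by 0.97 ± 0.12 (adjusted p = 0.00267). Leaving out replicate 2 of part 1 or any inner array ended its call, with an adjusted p of up to 0.0748. A second, dim probe set of Spry2 gave an inner minus ends difference of 0.49 and overlapped. Spry1, of the same family, gave 379 and 178 in part 1, 403 and 480.2 in part 2, 529 and 542 in part 3 and 159 and 140.3 in part 6. Its inner arrays were above all end arrays, but it passed against part 6 only (adjusted p = 0.00586), with adjusted p = 0.093 against part 1.

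Other response genes kept a high level into part 1. Dusp6, a phosphatase that dampens the ERK pathway, gave 428 and 369.8 in part 1, 463 and 502 in part 2, 349 and 489 in part 3 and 34.3 and 37.8 in part 6. Spry4 gave 172 and 117 in part 1, 75.2 and 134 in part 2, 17.2 and 23.4 in part 3 and 3.01 and 1.37 in part 6. Both were called higher in the inner pieces than in part 6, and their inner arrays overlapped those of part 1. Of 11 FGF feedback and response genes, 8 were higher in the inner pieces than in part 6, beside 2.85% of all genes. Against part 1, 2 (Etv5 and Spry2) were higher, beside 1.94%, and 0 were lower than either end. The list's median difference was 0.26 from part 1 and 1.67 from part 6, beside −0.02 and 0.02 over all genes. Of 11 Wnt target and feedback genes, 0 were beyond both ends. Apcdd1, an inhibitor of Wnt signalling, differed from part 1 by −0.91 (adjusted p = 0.0205) and from part 6 by 0.93 (adjusted p = 0.0117).

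**Figure D4:**
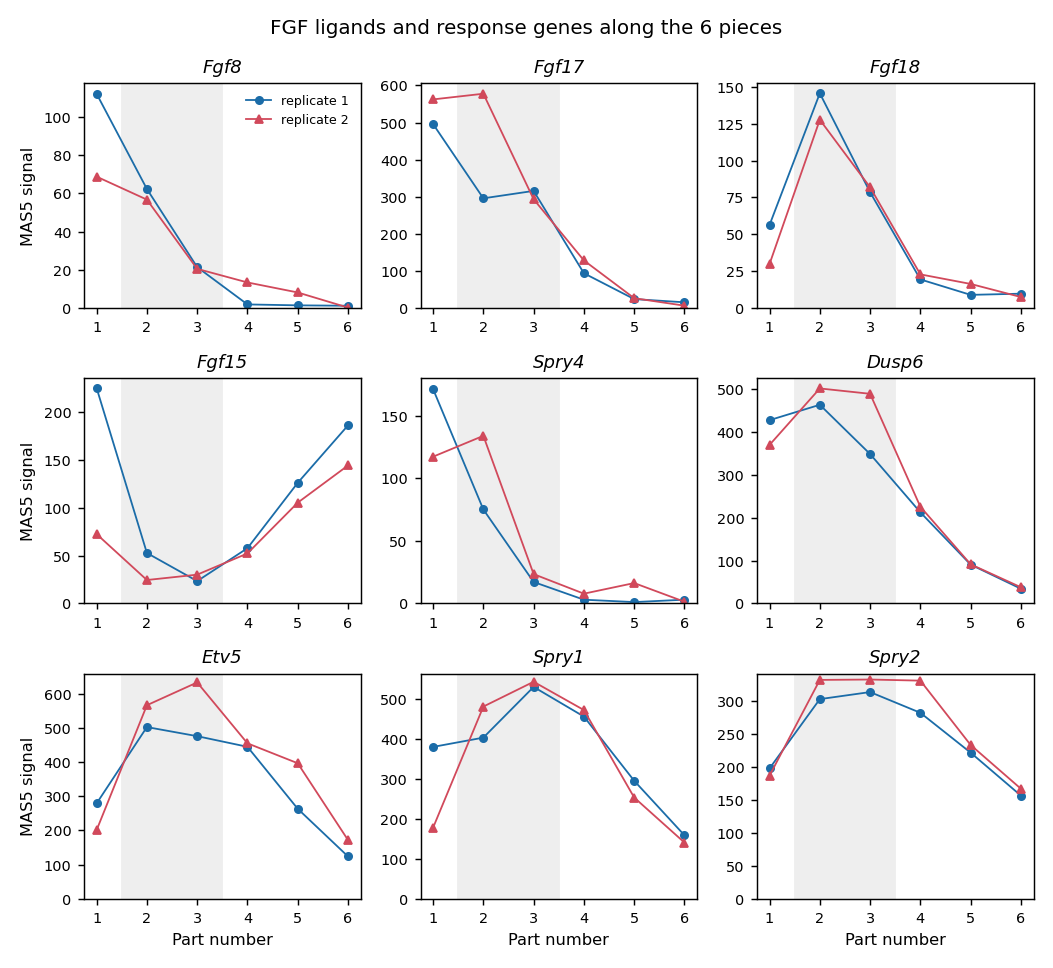
Signal (linear axis from 0) of 4 FGF ligands and 5 FGF response genes against part number, with replicate 1 as circles, replicate 2 as triangles and parts 2 and 3 shaded. Fgf18, Etv5, Spry1 and Spry2 are highest in parts 2 and 3, Fgf8 is highest in part 1, Fgf17, Spry4 and Dusp6 decline toward part 6, and Fgf15 has its minimum in parts 2 and 3.

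The upstream sequence of 4 of these genes is shown because they lead the sets: the top gene of the higher set (Foxd1), 2 FGF response genes that rose together (Etv5 and Spry2) and the lower Notch target (Hes5). Each is the 250 bases before the first listed transcription start in RefSeq (GRCm38.p6), 5′ to 3′ on the gene's strand, with capitals for motif matches. The windows are chr13:98353995-98354244 (plus strand) for Foxd1, chr16:22439571-22439820 (minus strand) for Etv5, chr14:105896820-105897069 (minus strand) for Spry2 and chr4:154960673-154960922 (plus strand) for Hes5.
Foxd1: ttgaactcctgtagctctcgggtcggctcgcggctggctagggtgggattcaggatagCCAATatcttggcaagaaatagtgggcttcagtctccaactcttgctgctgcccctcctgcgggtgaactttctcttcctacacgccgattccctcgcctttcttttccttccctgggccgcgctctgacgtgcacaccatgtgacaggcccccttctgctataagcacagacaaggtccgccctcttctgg
Etv5: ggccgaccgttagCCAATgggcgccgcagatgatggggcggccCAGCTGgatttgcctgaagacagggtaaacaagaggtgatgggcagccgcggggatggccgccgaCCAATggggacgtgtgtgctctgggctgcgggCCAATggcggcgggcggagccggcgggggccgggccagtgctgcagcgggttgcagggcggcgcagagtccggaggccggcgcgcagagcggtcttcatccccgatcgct
Spry2: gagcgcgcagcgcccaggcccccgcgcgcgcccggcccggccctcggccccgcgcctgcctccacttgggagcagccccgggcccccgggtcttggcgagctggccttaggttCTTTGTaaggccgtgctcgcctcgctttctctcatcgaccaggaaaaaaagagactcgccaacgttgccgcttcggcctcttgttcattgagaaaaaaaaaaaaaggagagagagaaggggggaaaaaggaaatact
Hes5: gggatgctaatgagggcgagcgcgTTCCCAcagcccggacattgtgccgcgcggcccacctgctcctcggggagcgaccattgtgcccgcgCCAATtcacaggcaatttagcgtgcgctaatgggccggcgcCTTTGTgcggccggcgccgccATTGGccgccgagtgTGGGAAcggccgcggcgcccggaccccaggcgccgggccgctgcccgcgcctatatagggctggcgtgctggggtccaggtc
The Foxd1 window held 1 CCAAT box. In Etv5 there were 3 CCAAT boxes and 1 E-box (CAGCTG), and in Spry2 1 SOX core (ACAAAG, on the minus strand). The Hes5 window held 2 copies of the RBPJ core (TGGGAA, 1 on each strand), the motif bound by the DNA-binding partner of Notch, 2 CCAAT boxes and 1 SOX core. These are matches of letters on either strand and not measured binding. Over the 300-base windows (250 before to 50 after the start) of 9753 tested genes, 42.9% held CCAAT, 17.7% CAGCTG, 16.4% ACAAAG and 26.4% TGGGAA. In the 164 inner high genes with a window the shares were 42.7%, 20.7%, 20.1% and 25.6%, and in the 129 inner low genes 34.9%, 14.7%, 18.6% and 24.8%. The ETS core CCGGAA was in 30.9% of all windows, 23.2% of inner high and 36.4% of inner low ones. These shares are descriptions with no test, and 18 of the 24 genes beyond both ends had a window.

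The other higher genes were of several kinds. Castor2, a subunit of an arginine sensor of the mTORC1 pathway, gave 96.8 and 76.5 in part 1, 184 and 160.2 in part 2, 284 and 183 in part 3 and 76.5 and 52.5 in part 6. Kirrel3, an adhesion protein of the immunoglobulin superfamily, gave 15.2 and 14.9 in part 1, 41.1 and 44.7 in part 2, 73.3 and 103 in part 3 and 11.7 and 24.5 in part 6. For both genes the inner arrays were above all end arrays, and for Kirrel3 part 3 was the highest piece. Castor2 was higher by 1.16 ± 0.13 than in part 1 (adjusted p = 0.00344) and by 1.58 ± 0.13 than in part 6 (adjusted p = 0.00031). Kirrel3 was higher by 1.76 ± 0.19 (adjusted p = 0.00244) and 1.61 ± 0.19 (adjusted p = 0.00188). Both calls held without each array in turn, with adjusted p of at most 0.0233 and 0.031, although other probe sets moved less: 0.55 and −0.08 for Castor2, and 0.25 for Kirrel3.

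Dock9, which activates the small GTPase Cdc42, gave 113 and 156 in part 1, 238 and 301 in part 2, 429 and 413 in part 3 and 163 and 179.7 in part 6. It was higher than part 1 by 1.31 (adjusted p = 0.00846) and than part 6 by 0.95 (adjusted p = 0.0214), and its 4 other probe sets gave differences of 0.80 to 1.14. The transcription elongation factor Tcea3, the chromatin remodeller Chd3, the kinase Tesk2, the inositol transporter Slc5a3, the scaffold protein Sash1 and the transcript 2610035F20Rik made up the rest of the 16, with inner minus ends differences of 0.70 to 1.35. All 6 had their inner arrays above their end arrays, and Tcea3 and Tesk2 were highest in part 4. Dock9 and Tcea3 kept their calls in 3 of 8 fits that each left out 1 array, Chd3 in 2, Tesk2, Slc5a3 and Sash1 in 1, and 2610035F20Rik in 7. Dock9 lost its call on leaving out replicate 2 of part 2, either array of part 3 or either of part 6. Tcea3 lost it on leaving out replicate 2 of part 1 or any inner array. Chd3 kept its call only without replicate 1 of part 1 or of part 2, Tesk2 and Slc5a3 only without replicate 1 of part 2, and Sash1 only without replicate 1 of part 1. 2610035F20Rik lost it without replicate 1 of part 6.

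Among the lower genes Hes5, a repressor driven by Notch, differed most. Hes5 gave 86.4 and 152 in part 1, 29.1 and 41.2 in part 2, 36.2 and 34.4 in part 3 and 1619 and 1415 in part 6. The inner arrays were the lowest, part 1 lay between, and part 6 was far above all. Hes5 differed from part 1 by −1.60 ± 0.21 (SE, log2 scale, adjusted p = 0.00583) and from part 6 by −5.27 ± 0.21 (adjusted p = 1.22e-05). The call held without each array in turn, with an adjusted p of at most 0.0424. The probe set is of a kind that can share probes with similar transcripts, and a second probe set had the same pattern, with a difference of −1.65. In part 4 the signal was still 80.5 and 80.2, and in part 5 it was 569 and 696.

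The Notch ligand Jag1 was also inner low, with part 1 above part 6. Jag1 gave 571 and 379 in part 1, 233 and 232 in part 2, 199 and 198 in part 3 and 327 and 315 in part 6. All inner arrays were below all end arrays, with a difference of −1.10 from part 1 (adjusted p = 0.0106), while the difference of −0.57 from part 6 did not pass (adjusted p = 0.0999). Its 2 other probe sets, both dim, gave inner minus ends differences of −0.31 and 0.13 and overlapped. Of 20 Notch pathway genes Hes5 and Jag1 were inner low and 0 were inner high, beside 1.32% and 1.65% of all genes. With so few genes these counts are not read as a result about the pathway. The ligand Dll1 overlapped: it gave 525 and 22.2 in the 2 arrays of part 2, the first being the array with the mesodermal transcripts.

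Fgf15, an FGF ligand outside the Fgf8 group and the mouse counterpart of human FGF19, was lowest in parts 2 and 3. Fgf15 gave 225 and 72.3 in part 1, 52.6 and 24.4 in part 2, 23.3 and 30.0 in part 3 and 186 and 144 in part 6. The inner arrays were below both ends, and the 2 arrays of part 1 were far apart. Fgf15 differed from part 1 by −1.90 ± 0.34 (adjusted p = 0.0242) and from part 6 by −2.25 ± 0.34 (adjusted p = 0.00637). The call was lost on leaving out replicate 1 of part 1, replicate 2 of part 2, replicate 1 of part 3 or either array of part 6, with an adjusted p of up to 0.0793.

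Bmper, a secreted protein that binds bone morphogenetic proteins, and Ets1, a transcription factor of neural crest and endothelium, were low from part 2 to part 4. Bmper gave 171 and 69.5 in part 1, 13.6 and 24.5 in part 2, 8.54 and 20.7 in part 3 and 142 and 121 in part 6. Ets1 gave 64 and 61.1 in part 1, 20.5 and 29.8 in part 2, 12.2 and 21.2 in part 3 and 87.9 and 91.1 in part 6. For both genes every inner array was below every end array. Bmper differed from part 1 by −2.49 ± 0.48 (adjusted p = 0.0328) and from part 6 by −2.74 ± 0.48 (adjusted p = 0.0139). Ets1 differed from part 1 by −1.45 ± 0.23 (adjusted p = 0.0146) and from part 6 by −1.93 ± 0.23 (adjusted p = 0.00192). The summed signal of 7 endothelial markers was 1420 to 3510 in part 1 and 417 to 2230 in part 2. It was 225 to 323 in part 3 and 141 to 157 in part 6. The sum includes Aplnr, named above as a gene of mesoderm, and single markers need not follow it. Cldn5, also in the sum, gave 2.7 and 11.1 in part 1 and 22.4 and 5.43 in part 2. In part 3 it gave 41.3 and 56.2, and in part 6 17.3 and 17.9. The part of endothelium in the values of Bmper and Ets1 was not tested. A second probe set of Ets1 was inner low with a difference of −1.65, and a dim one gave 0.20. The call for Bmper held in 2 of 8 fits that each left out 1 array (those without replicate 2 of part 2 or of part 3, with an adjusted p of up to 0.122 in the others). That for Ets1 was lost without either array of part 1, with an adjusted p of up to 0.0768.

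Pax7, a factor of the dorsal neural tube and neural crest, was near the floor of the arrays inside and present at both ends. Pax7 gave 42.8 and 20.5 in part 1, 2.83 and 4.28 in part 2, 0.979 and 1.7 in part 3 and 18.6 and 23.3 in part 6. All inner signals were under the offset of 4.43 and carry no order among themselves. Since the probe set passed the filter on end arrays alone, no difference or test is given for it.

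The membrane-anchored protein Ly6k was also dim inside. Ly6k gave 16.4 and 21.0 in part 1, 3.13 and 3.88 in part 2, 2.18 and 3.27 in part 3 and 14.2 and 19.9 in part 6. Asb4, a subunit of a ubiquitin ligase, gave 11.3 and 12.4 in part 1, 3.98 and 1.95 in part 2, 2.59 and 1.98 in part 3 and 39.4 and 18.2 in part 6. The metalloprotease Mmp23 gave 22.0 and 21.3 in part 1, 2.39 and 2.64 in part 2, 5.12 and 1.33 in part 3 and 9.88 and 9.31 in part 6. For all 3 genes the inner signals lay near or under the offset and below all end arrays, and no difference is given.

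**Figure D5:**
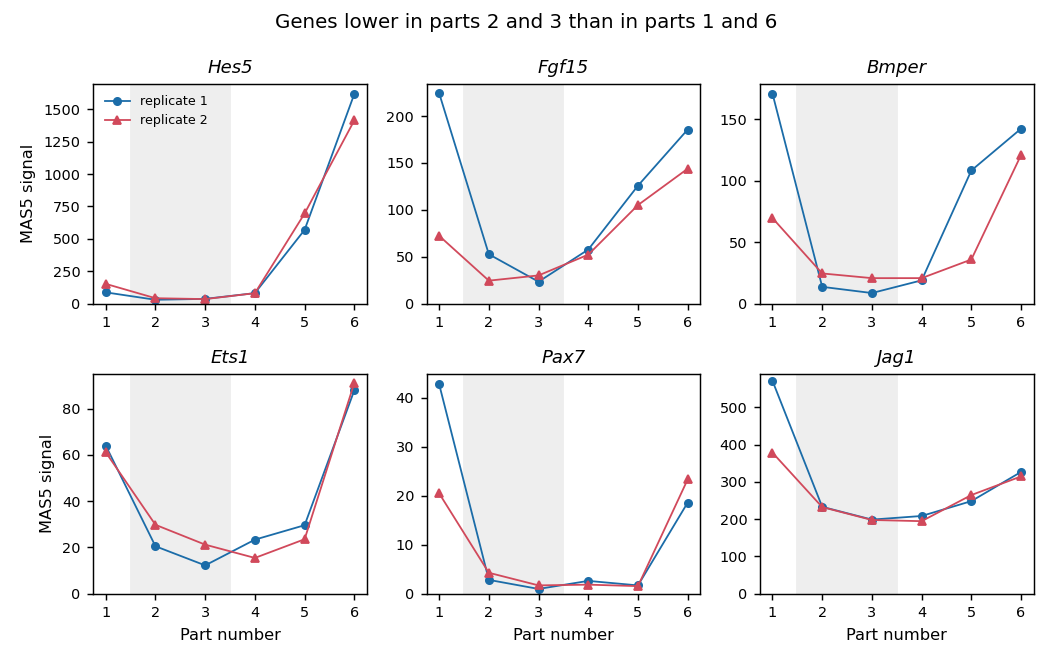
Signal (linear axis from 0) against part number for 6 genes lower in parts 2 and 3 than at both ends, with replicate 1 as circles, replicate 2 as triangles and parts 2 and 3 shaded. Hes5 is far higher in part 6 than in part 1, Fgf15, Bmper and Pax7 have a higher replicate 1 than replicate 2 in part 1, and Ets1 is low in parts 2 to 5.

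Further genes with no overlap between inner and end arrays passed against 1 end only, or against neither. Sall4, a zinc finger factor of early embryonic cells, gave 1938 and 1394 in part 1, 2721 and 3109 in part 2, 2955 and 2489 in part 3 and 1520 and 1216 in part 6 (adjusted p = 0.0522 against part 1 and 0.00998 against part 6). Jarid2, a cofactor of the Polycomb complex PRC2, gave 1019 and 939 in part 1, 1365 and 1486 in part 2, 1976 and 1434 in part 3 and 701 and 515 in part 6 (adjusted p = 0.0748 and 0.00244). For both genes the inner arrays were above all end arrays, and Sall4 was as bright in part 4 (2982 and 2907). A further probe set of Sall4 gave 1.08 and overlapped, and 2 of Jarid2 gave 0.72 and 1.02 and did not overlap. Timp4, an inhibitor of metalloproteases, gave 13.8 and 46.9 in part 1, 129 and 109 in part 2, 166 and 127 in part 3 and 54.3 and 44.9 in part 6, and passed against part 1 (adjusted p = 0.0201) but not part 6 (adjusted p = 0.0905). Tfdp2, a partner of E2F factors, had a difference of 0.56, and its 3 other probe sets did not follow (−0.23, −0.16 and 0.10).

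On the low side, Msx1, a homeodomain factor of the dorsal tube, gave 503 and 413 in part 1, 327 and 348 in part 2, 246 and 307 in part 3 and 585 and 625 in part 6, and passed against part 6 (adjusted p = 0.0391) but not part 1 (adjusted p = 0.191). Id3, an inhibitor of basic helix-loop-helix factors, differed from part 6 by −1.77 (adjusted p = 0.0019) and was not called against part 1 (adjusted p = 0.207). Nrp1, a receptor for semaphorins and VEGF, had an inner minus ends difference of −1.56, carried by part 6 (adjusted p = 0.000438, against 0.327 for part 1), and its 3 other probe sets gave −1.75, −1.70 and −1.36. Ghr, Rrm2b, Zfp948, Crip2, Crebzf, Spc25 and Ndrg3 had inner minus ends differences of −0.29 to −0.73. Against part 1, Ndrg3 (−1.04, adjusted p = 0.00744), Zfp948 (−1.02, adjusted p = 0.0261) and Ghr (−0.64, adjusted p = 0.034) passed. None of these genes passed against part 6. Of 17 dorsal and roof plate genes, Msx1, Pax7 and Id3 were inner low and Atoh1 was inner high, and of 17 neural crest genes Ets1 alone was inner low. Over all genes 1.32% were inner low and 1.65% inner high, and Pax7 passed the filter through end arrays alone. With so few genes these counts are not read as a result about either list.

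Parts 4 and 5 were not used by the rule of non-overlap, though a comparison with the ends shares the end arrays. The filter on low signals counted all 12 arrays, and the spread behind the calls of the 24 genes came from all 12. Of the 200 inner high genes, 97 (48.5%) also had both arrays of part 4 above all end arrays, beside 5.31% of all genes, and 63 (31.5%) those of part 5, beside 5.43%. Of the 159 inner low genes the shares were 33.3% for part 4 (3.99% of all genes) and 20.1% for part 5 (4.23%). Of the 24 genes beyond both ends, 15 of the 16 higher and the 8 lower ones, among them 4 dim in the inner pieces, had part 4 on the same side of all end arrays, and 11 and 4 had part 5 there. Fgf18 was the exception in part 4. In the fit itself part 4 was higher than both ends for 11 genes (0.091%), 7 of them among the 16, and lower for 2 (0.0165%), Pax7 and Ets1. Pax7 passed the filter through end arrays alone, so its call in part 4 had to be low and is not read as a result. By mean signal the highest piece was part 3 for 12 of the 16, part 2 for Foxd1 and Fgf18, and part 4 for Tcea3 and Tesk2.

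Other groups of genes gave few or no members beyond both ends. Of 14 retinoid genes, Stra6, a retinol transporter, was inner high and Crabp2, a retinoic acid carrier, inner low, and 0 passed against both ends. Among 21 genes of neurogenesis Atoh1 and Tubb3 were inner high and Neurod4 inner low, with 0 beyond both ends by the test. Over all genes 1.65% were inner high and 1.32% inner low, and these few members do not set either list apart. For genes of the G1/S and G2/M transitions, glycolysis, hypoxia response, oxidative phosphorylation, cholesterol synthesis, immediate early response and p53 targets, 0 of 129 genes were inner high or inner low, beside 2.97% of all genes, and the list medians lay between −0.17 and 0.06, beside 0.01 over all genes. No test of these groups was run, and the 0 is not read as a result about them. Beyond the groups above, Pcdh18 and Col6a1 were inner high and Bmp5 was inner low, with 0 of the 3 passing against both ends. Selplg, a cell surface ligand of selectins, was dim, with 2.86 and 4.09 in part 1, 12.7 and 12.9 in part 2, 3.6 and 3.94 in part 3 and 4.48 and 3.88 in part 6, and its inner arrays overlapped the ends.

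The comparison was also set side by side for the 2 embryos. The difference of inner minus ends changed with the replicate number for 0 genes (0%) at an adjusted p under 0.05 in limma and for 234 (1.94%) at an unadjusted p under 0.05. This test takes the differences between the 2 pieces of a side into its spread. The 0 therefore does not show that the embryos agree. Foxd1 was higher inside by 2.92 in replicate 1 and by 2.65 in replicate 2, and Hes5 differed by −3.38 and −3.48. Others of the 24 genes were less alike: Bmper, the furthest apart, differed by −3.39 and −1.84, and Chd3 by 0.71 and 1.26. Of 172 other probe sets of inner high genes 144 had the same sign and 23 the same pattern, and of 114 of inner low genes 78 had the same sign and 10 the same pattern, while 1 in all had the opposite pattern. These come from the same RNA and are not a further replicate. Over all 21681 kept probe sets, 353 were inner high and 268 inner low. The share of signs over all probe sets was not counted, so the counts of signs are not read as agreement.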

How the data were processed

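Affymetrix arrays measured RNA amplified over 2 cycles, per the labels' protocols, and the deposited table holds linear MAS5 intensities (submitters' processing notes, with no settings given). Every one of the 12 arrays was scaled to a trimmed mean of 100, their medians ran from 16.7 to 19.1, and 2 arrays per piece limit the precision. Among 45101 probe sets, 34945 that were no controls had 1 gene symbol in GEO's platform annotation, 932 had several and 9160 none, and 34741 matched the RefSeq gene table by Entrez identifier. Probe sets above their array's own median on at least 2 of 12 arrays were used (21681), and the brightest of them stood for each gene (12089 genes).

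Tests ran on log2(signal + 4.43), an offset of 0.25 times the median signal (17.7), with limma 3.58.1 in R 4.3.3 (lmFit and eBayes, two-sided, Benjamini-Hochberg adjustment over all genes, threshold 0.05) and with the replicate number as a block; the fit per piece used all 12 arrays. The steps were tested on simulated data. Same-numbered arrays deviated together (r of 0.229 to 0.335 over 6 pairs of pieces), and on every piece transcripts of the X-inactivation gene Xist marked replicate 1 and those of the Y-linked genes Eif2s3y and Uty marked replicate 2, so the numbers pair the arrays by embryo. Replicates come from 2 embryos, and the block takes out the mean difference between them. The p-values of the fit per piece measure the spread that remains between same-piece arrays. Those of the single-group test also take in the differences between the 2 pieces of a side. With 2 embryos, neither measures the spread among embryos at large.

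The members and gene lists were chosen with earlier results of these data known. Genes were to be named when they passed the test of single groups; too few did, so 14 per direction were taken by the largest gap between the nearest arrays of the 2 sides, among genes with a mean signal of at least 50, together with, per list, the member of smallest p. Ly6k, Asb4, Mmp23, Chd3, Tesk2, Slc5a3, Sash1 and 2610035F20Rik, the further response and pathway genes, and the ETS and RBPJ cores were named after their values were seen. Alternatives changed the offset, the filter, the normalization, the probe set, the block, the model and the arrays. Detection calls were not used.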

Additional observations from a re-analysis of the deposited data

Results flagged for a closer look

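In groups of 4 arrays, a sample was singled out when its gap to the nearest other array took up more of the group's range than the 95% critical value of Dixon's test. Of 130 such groups over 65 genes this held for 7, and chance gives about 1 in 20. On the end side, Timp4 was lowest in replicate 1 of part 1 (signal 13.9, share of the range 0.85), Crebzf highest in replicate 1 of part 6 (289, 0.883), Nkd1 lowest in replicate 1 of part 6 (119, 0.836) and Klf1 highest in replicate 2 of part 1 (30.5, 0.919). Klf1 is a red blood cell factor, and Hbb-y was also high on that array (7055). On the inner side, Ndrg3 was lowest in replicate 1 of part 3 (134, 0.869), Cdx2 highest in replicate 2 of part 2 (1630.0, 0.894) and Otx1 highest in replicate 1 of part 2 (20.7, 0.868). The last is the array with the mesodermal transcripts.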

How the results depend on the processing

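The test of single groups gave 0 higher and 1 lower gene, the dim Ly6k. The lower count became 0 with an offset of 16, no filter, a filter at the 75th percentile, part 2 alone or part 3 alone, and 2 for parts 2 to 5. With 1 coefficient per part it gave 101 higher and 65 lower genes over 12 arrays and 44 and 37 over 8, by leaving the difference between the ends out of the spread. Leaving out single arrays gave 0 to 2 and 0 to 1.

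Non-overlap (200 high, 159 low) gave 122 and 94 with the 75th percentile filter, 353 and 268 over all kept probe sets, 569 and 594 for part 2 alone, 562 and 471 for part 3 alone, 46 and 15 for parts 2 to 5, and 12 and 7 with arrays at least 0.5 apart. With no filter 254 were low. Leaving out single arrays gave 275 to 694 (694 without replicate 1 of part 1) and 235 to 431.

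Calls against both ends (16 higher, 8 lower) numbered 26 higher with an offset of 16 or the 75th percentile filter, 9 and 5 with no filter, and 10 and 4 over 8 arrays. Leaving out single arrays gave 6 to 37 (37 without replicate 1 of part 1) and 3 to 11. With no replicate block they numbered 13 and 8, all among the 24, and the single-group test 0 and 1. Without replicate 1 of parts 1 and 6, the arrays low in globin, an alternative chosen after seeing the data, they numbered 10 and 3, non-overlap 1382 and 871, and the single-group test 0 lower.

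The 16 of the 24 genes that the naming rule covers kept their direction under every alternative run. Nkd1 (0.42) turned to −0.15 for parts 2 to 5, Hand1 (0.50) to −0.03 for part 2 alone, and Otx1 (−0.18) to 0.29 for part 2 alone, with −0.67 to 0.26 on leaving out single arrays (above 0 without replicate 1 of part 1 or of part 3, the latter 0.23). Except where stated, the cause was not tested. Signals of a few units, as for Pax7, Ly6k, Asb4 and Mmp23 inside, carry no order.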
